A study of Homo sapiens with 18 samples.

Results

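The 10 inflammatory mediator genes were followed across 6 groups of A549 cells: the chemokines CXCL1, CXCL2, CXCL3, CXCL8 and CCL2, the cytokines IL6, IL11 and LIF, the enzyme gene PTGS2 and the pentraxin gene PTX3. They were taken by gene symbol from the 44016 features counted, and all 10 passed the low-count filter that left 22382 genes for testing. A549 is an established line from a human lung adenocarcinoma, and poly(A) RNA was sequenced from 3 biological replicates per group, 18 libraries in all. The groups were wild type (WT) untreated, WT after 2 h in 100 µM hydrogen peroxide (H2O2), a stable knockdown (KD) of S100A16 untreated, the same KD after the same H2O2 dose and time, and stable KDs of hnRNPM and of MagoHB, both untreated. S100A16 belongs to the S100 proteins, which bind calcium, hnRNPM binds RNA in the nucleus and acts in splicing, and MagoHB is part of the exon junction complex left on spliced mRNA. The series title names splicing controlled by S100A16 under oxidative stress. Every KD was set against WT cells, not against a line with an empty vector. How the KDs were made, and whether each line is a clone or a pool, is not stated in the labels.

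CXCL1, CXCL2, CXCL3 and CXCL8 are chemokines that draw neutrophils through the receptor CXCR2, and CCL2 draws monocytes through CCR2. IL6, IL11 and LIF bind receptors that share the subunit IL6ST and signal through JAK kinases and STAT3. PTGS2 is the inducible cyclooxygenase that starts prostaglandin synthesis, and PTX3 is a secreted pattern recognition protein of innate immunity. In epithelial cells these genes are commonly switched on by NF-kB, AP-1 and C/EBP transcription factors, and many of their mRNAs are short-lived because proteins such as ZFP36 bind AU-rich stretches in them.

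The 4 CXCL genes lie together on GRCh38 chromosome 4: CXCL8 at 73740506 to 73743716 and CXCL1 at 73869393 to 73871242 on the plus strand, CXCL3 at 74036589 to 74038807 and CXCL2 at 74097035 to 74099293 on the minus strand. The other members are on separate chromosomes: PTGS2 on 1 (186671791 to 186680427, minus), PTX3 on 3 (157436789 to 157443628, plus), IL6 on 7 (22725884 to 22732002, plus), CCL2 on 17 (34255218 to 34257203, plus), IL11 on 19 (55364389 to 55370463, minus) and LIF on 22 (30240447 to 30246851, minus). RefSeq promoters (GRCh38.p14) matched 8 of the 10 members, all but CCL2 and LIF. The 150 bases before the RefSeq start site are printed 5′ to 3′ for 7 members, since CXCL1, CXCL2 and CXCL3 carry nearly the same stretch, and the others show the NF-kB or AP-1 matches described below. Capitals mark bases that match the NF-kB consensus in CXCL1, CXCL2, CXCL3, IL6 and PTX3, and the AP-1 motif in CXCL8 and IL11. The features of CXCL2, CXCL3, CXCL8, IL6, PTGS2 and PTX3 in the deposited table begin upstream of the RefSeq start. Part of the printed window lies inside the feature for CXCL2, CXCL3, CXCL8 and PTX3, and for IL6 the whole window does. The NF-kB match lies inside the feature for CXCL2, CXCL3 and IL6.
CXCL1 (chr4:73869243-73869392, plus strand): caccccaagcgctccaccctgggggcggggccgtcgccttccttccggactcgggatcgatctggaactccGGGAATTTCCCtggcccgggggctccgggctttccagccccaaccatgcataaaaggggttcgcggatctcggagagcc
CXCL2 (chr4:74099196-74099345, minus strand): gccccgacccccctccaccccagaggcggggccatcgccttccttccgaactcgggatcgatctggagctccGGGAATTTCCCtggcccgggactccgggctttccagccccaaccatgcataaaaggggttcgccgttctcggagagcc
CXCL3 (chr4:74038690-74038839, minus strand): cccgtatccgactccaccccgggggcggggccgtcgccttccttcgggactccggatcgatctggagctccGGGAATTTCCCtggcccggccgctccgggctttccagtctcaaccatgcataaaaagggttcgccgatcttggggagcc
CXCL8 (chr4:73740419-73740568, plus strand): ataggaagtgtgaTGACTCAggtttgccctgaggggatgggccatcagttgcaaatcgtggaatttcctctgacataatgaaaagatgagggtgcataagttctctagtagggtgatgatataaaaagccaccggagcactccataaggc
IL6 (chr7:22727050-22727199, plus strand): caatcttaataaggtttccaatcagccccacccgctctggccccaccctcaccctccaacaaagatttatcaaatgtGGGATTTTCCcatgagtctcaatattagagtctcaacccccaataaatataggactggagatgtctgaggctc
IL11 (chr19:55370464-55370613, minus strand): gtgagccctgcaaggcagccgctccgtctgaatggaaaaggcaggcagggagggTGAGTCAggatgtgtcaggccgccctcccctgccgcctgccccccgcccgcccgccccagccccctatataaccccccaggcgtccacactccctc
PTX3 (chr3:157436700-157436849, plus strand): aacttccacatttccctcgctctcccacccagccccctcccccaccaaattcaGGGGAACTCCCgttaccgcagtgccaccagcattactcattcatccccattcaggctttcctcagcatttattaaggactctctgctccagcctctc

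The NF-kB consensus was searched on both strands in the 250 bases before each start site, and it occurred in 5 of the 8 member promoters and in 5.21% of 35116 RefSeq promoters of that length. In CXCL1 and CXCL3 its first base was at -79, in CXCL2 at -78, in IL6 at -73 and in PTX3 at -97, counted from the start site. CXCL1, CXCL2, CXCL3 and PTX3 each had an overlapping match 1 base further on. The AP-1 motif TGANTCA occurred in CXCL8 (from -137) and IL11 (from -96), and in 6.57% of all promoters. The C/EBP motif TTGCNNAA occurred in CXCL2, IL6, PTGS2 and PTX3 and in 9.05% of all. The sequence TATAAA occurred in CXCL8 and PTGS2 and in 10.7% of all, while TGACGTCA, the cyclic AMP response element, occurred in 0 of the 8 and in 1.65% of all. These other motifs were also searched on both strands, and none overlapped an NF-kB match. Within the 150 bases printed above, the longest identical run was 42 bases for CXCL1 and CXCL2, 37 for CXCL2 and CXCL3, 25 for CXCL1 and CXCL3, and 9 for each of these with CXCL8. The run shared with CXCL8, GGAATTTCC, lies within the NF-kB matches of CXCL1, CXCL2 and CXCL3. In CXCL8 it begins at -91, and the bases around it do not match the full consensus searched. A match describes letters only, and binding was not measured.

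Libraries held 36612997 to 51406431 counts. S100A16 mRNA in its KD was 6.62% to 7.6% of the untreated WT mean without H2O2 and 5.54% to 6.22% with it. HNRNPM mRNA in its KD was 15.9% to 24.0% of WT, and MAGOHB mRNA in its KD was 25.3% to 41.1%. The targets were also lower in other KDs: S100A16 was 43.9% to 62.0% of WT in the MagoHB KD, MAGOHB was 36.4% to 51.3% in the hnRNPM KD, and in the untreated S100A16 KD HNRNPM was 66.2% to 69.5% and MAGOHB 62.9% to 66.8%. Epithelial keratin mRNAs were abundant in every library, at 3040 to 6240 CPM for KRT8 and 1280 to 2430 CPM for KRT18, although KRT19 (0.545 to 1.37 CPM) and EPCAM (2.09 to 6.57 CPM) were low. The cadherin gene CDH1 (14 to 103 CPM) and the aldehyde dehydrogenase gene ALDH1A1 (2040 to 4350 CPM) were also present, as were the reductase genes AKR1B10 (386 to 3170 CPM), AKR1C1 (64.7 to 862 CPM) and NQO1 (342 to 1720 CPM). These 9 epithelial and A549 markers summed to 13300 to 14500 CPM in untreated WT, 13800 to 14200 CPM in the untreated S100A16 KD, 9900 to 9940 CPM in the hnRNPM KD and 8770 to 10100 CPM in the MagoHB KD. Of the 9, edgeR called 3 higher and 4 lower in the S100A16 KD, 2 and 5 in the hnRNPM KD, and 0 and 6 in the MagoHB KD. The part of these differences in the results was not tested. Over 9 leukocyte markers the summed level was 94.8 to 105 CPM in WT cells without H2O2, 135 to 145 CPM in S100A16 KD cells without H2O2, 90.3 to 159 CPM in the hnRNPM KD and 80.4 to 144 CPM in the MagoHB KD. CD68, which many cell types express, made up most of it (75.8 to 154 CPM), while PTPRC was at most 0.516 CPM, and ITGAM ranged from 1.55 to 7.15 CPM. ITGAM was higher in the untreated S100A16 KD (7.03 against 2.14 CPM, edgeR adjusted p = 7.16e-08) and in the MagoHB KD (5.71 CPM, adjusted p = 1.57e-06). Of the 4 leukocyte markers tested, edgeR called 1 higher and 0 lower in the untreated S100A16 KD, 0 and 0 in the hnRNPM KD, and 1 and 1 in the MagoHB KD. CD3E and TYROBP were at most 0.0476 and 0.0981 CPM. The 6 endothelial markers summed to at most 1.07 CPM. The 7 fibroblast markers summed to 84.5 to 115 CPM in untreated WT and to 48.3 to 56.7 CPM in the untreated S100A16 KD. The sum was 71.9 to 86.4 CPM in the hnRNPM KD and 46.6 to 75 CPM in the MagoHB KD. Of these 7, edgeR called 0 higher and 2 lower in the untreated S100A16 KD, 2 and 0 in the hnRNPM KD, and 0 and 1 in the MagoHB KD. Beside all these marker counts, 27.6% of all genes were called higher and 24.8% lower in the untreated S100A16 KD. The shares of all genes were 25.4% and 23.8% in the hnRNPM KD, and 23.3% and 22.3% in the MagoHB KD.

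In 2 libraries several of the 10 genes stood above their replicates. In MagoHB KD 2, 9 of the 10 genes were at their highest in that group, with PTX3 4.57 times, IL6 4.15 times, CXCL8 3.21 times and CXCL1 2.93 times the mean of the other 2 libraries. In hnRNPM KD 3, 7 genes were highest, with CXCL8 at 4.24 times, IL6 at 2.88 times and CXCL1 at 2.17 times. Over all tested genes, 6.04% in MagoHB KD 2 and 4.8% in hnRNPM KD 3 were more than 2-fold above their replicates, against 1.64% to 3.27% in the other libraries. These were also the libraries with the least of their targeted mRNA, at 25.3% of WT for MAGOHB (41.1% and 38.1% in the others) and 15.9% for HNRNPM (22.5% and 24.0%). The part of these libraries in the results was not tested. The main changes with both libraries left out are given beside the results. The 2 were picked after seeing the data, as libraries in which these genes stood high. Leaving them out lowers the means of most of these genes in these KDs and narrows their spread. Calls gained without them are therefore a description and not independent support.

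**Figure D1:**
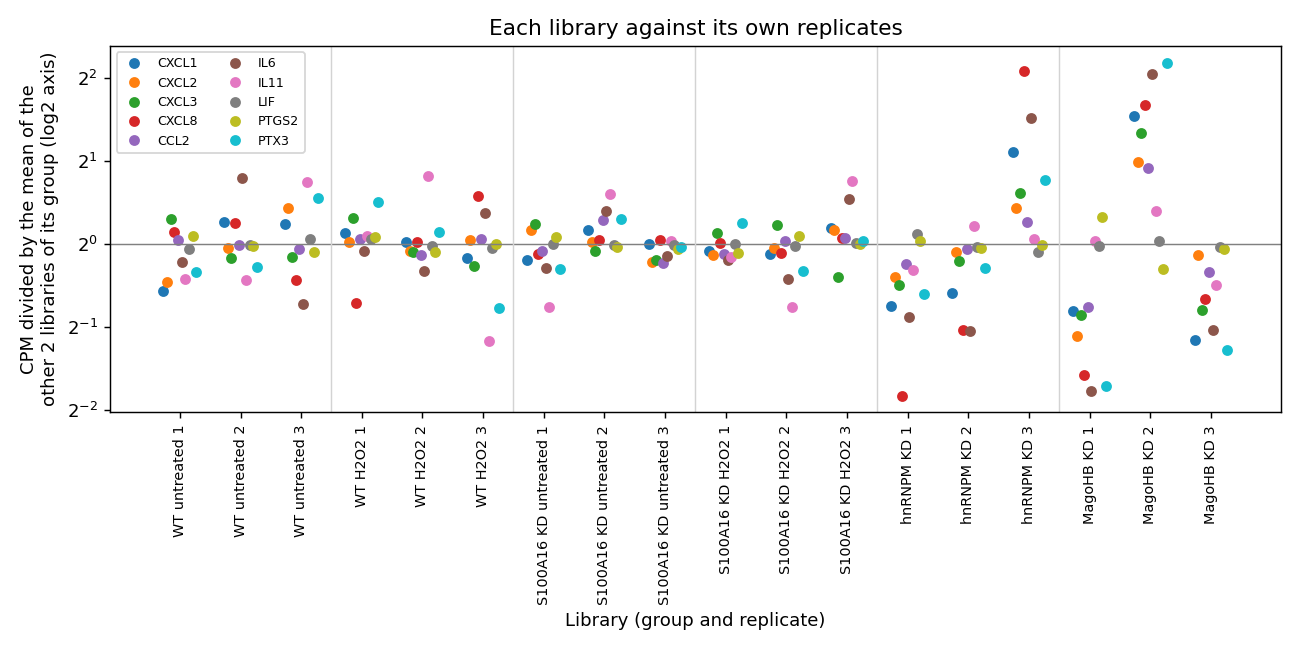
Each point is the CPM (TMM scaling) of a gene in a library divided by the mean of the other 2 libraries of its group, on a log2 axis. Points for MagoHB KD 2 reach 4.57 (PTX3) and points for hnRNPM KD 3 reach 4.24 (CXCL8), while the WT and S100A16 KD libraries stay closer to 1.

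In untreated WT cells the 10 genes fell into a high and a low set. Per length, on the authors' RPKM scale, LIF (7.18 ± 0.28), CCL2 (6.33 ± 0.11) and PTGS2 (5.50 ± 0.19) were the highest (SD, n = 3). CXCL2 followed at 1.37 ± 0.30 and CXCL1 at 1.02 ± 0.22, and IL11 (0.211 ± 0.070) and IL6 (0.201 ± 0.070) were the lowest. In the hnRNPM KD, PTX3 (12.4 ± 4.5 RPKM) overlapped CCL2 (12.8 ± 1.8 RPKM), while IL11 (7.97 ± 1.0 RPKM) stayed below both in every library.

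**Figure D2:**
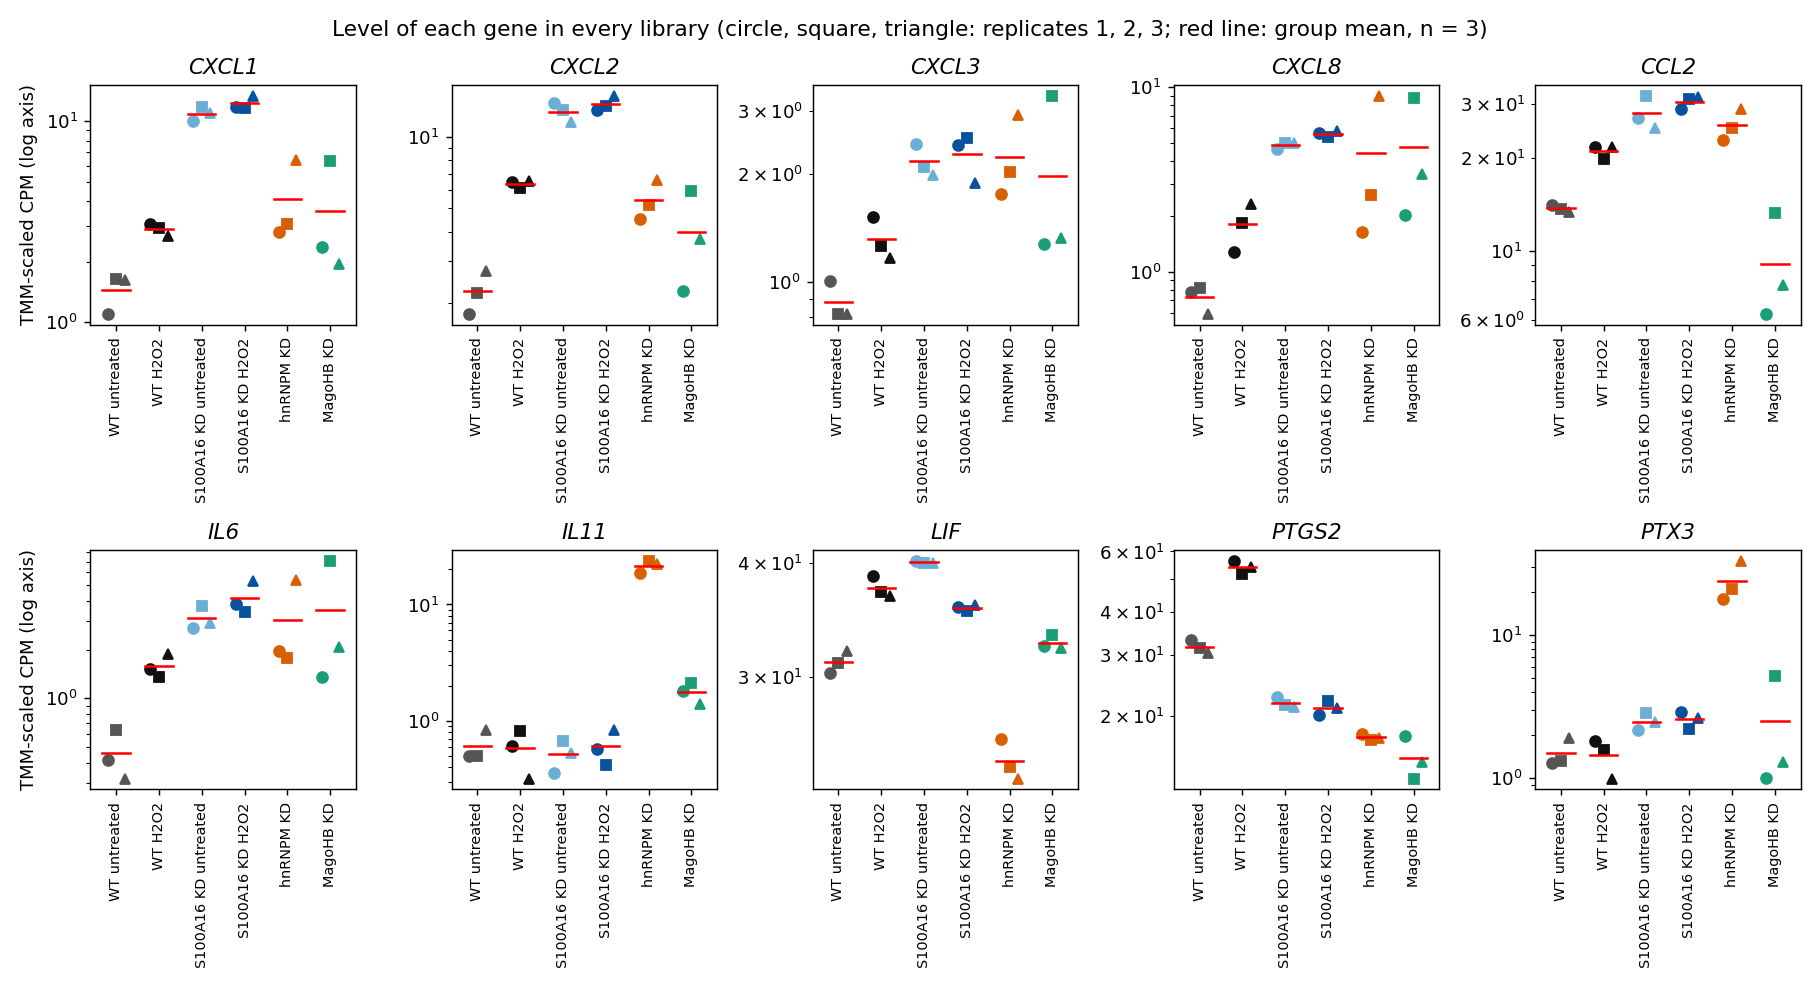
Level of each gene in all 18 libraries, as CPM with TMM scaling on a log axis whose range differs between panels. Marker shapes stand for replicates 1 to 3 and red lines for group means. IL11 and PTX3 stand apart in the hnRNPM KD, CXCL1 and CXCL2 in both S100A16 KD groups, and PTGS2 is highest in WT cells under H2O2.

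The KDs moved most of the 10 genes, against a background in which about as many genes rose as fell. The 10 genes were chosen with earlier results of these data known. Their counts beside the background are therefore a description and not independent support. A gene was called where edgeR's quasi-likelihood test gave an adjusted p under 0.05 over all 22382 genes. In the untreated S100A16 KD, 7 members were higher and 1 lower than in untreated WT, where 52.3% of all genes were called, 27.6% higher and 24.8% lower. In the hnRNPM KD, 8 were higher and 2 lower, against 49.1% of all genes called (25.4% higher and 23.8% lower). In the MagoHB KD, 6 were higher and 2 lower, against 45.5% called (23.3% and 22.3%). The median log2 fold change over the 10 members was 1.16, 1.42 and 1.01 in these KDs, while that over all genes was 0.06, 0.02 and 0.04. The 3 comparisons share the untreated WT libraries. In bulk RNA, fewer cells that make a transcript and less of it per cell cannot be told apart. With scaling by total counts instead of TMM, the median of all genes shifted by 0.24, 0.11 and 0.21 on the log2 scale in the S100A16, hnRNPM and MagoHB KDs. The share of calls that were higher then went from 52.7% to 74%, from 51.6% to 63.1% and from 51.1% to 74.7%. With hnRNPM KD 3 and MagoHB KD 2 left out, 8 members were higher and 1 lower in the S100A16 KD (30.8% and 27.4% of all genes), 8 and 2 in the hnRNPM KD (25.8% and 24.9%), and 6 and 2 in the MagoHB KD (21.6% and 22.9%).

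**Figure D3:**
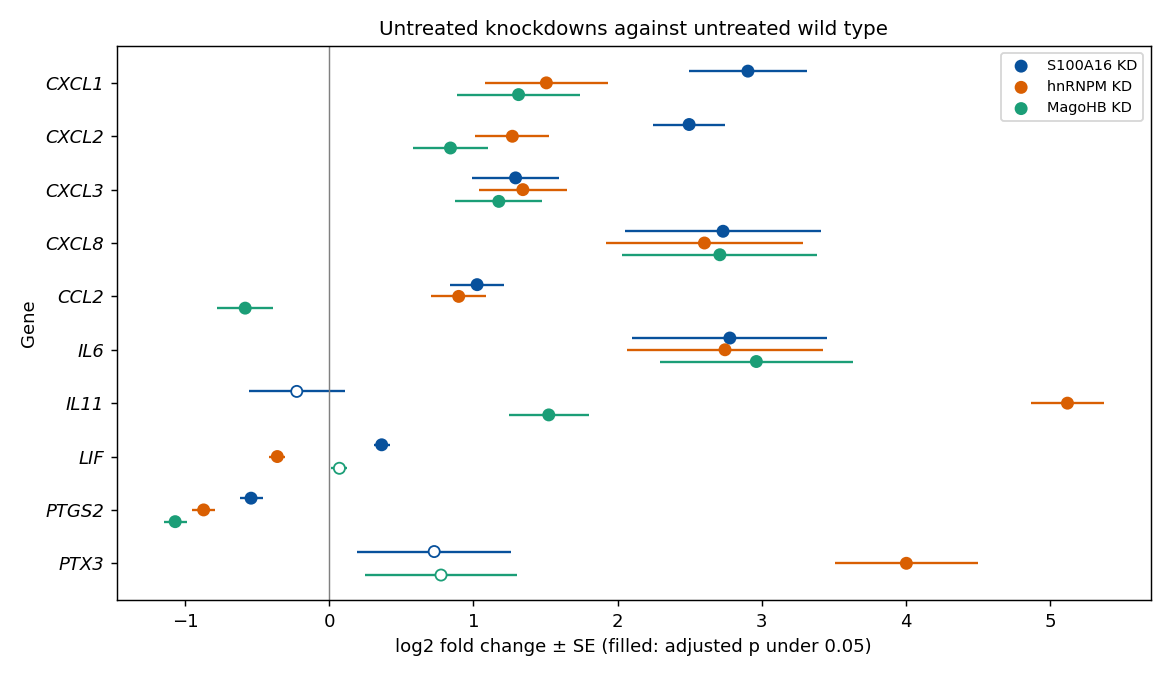
Log2 fold change of each gene in the 3 untreated KDs against untreated WT, with bars for the standard error and filled points for adjusted p under 0.05. IL11 (5.12) and PTX3 (4.00) lie far to the right in the hnRNPM KD alone among the plotted KDs, and PTGS2 lies left of 0 in all 3.

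CXCL1 was 1.10, 1.64 and 1.62 CPM in the untreated WT libraries and 9.96, 11.7 and 10.9 CPM in the untreated S100A16 KD libraries. It was 2.82, 3.07 and 6.39 CPM in the hnRNPM KD and 2.37, 6.33 and 1.95 CPM in the MagoHB KD. All KD libraries lay above all WT libraries, and the S100A16 KD lay above both other KDs. The rise over WT was 7.49-fold in the S100A16 KD (log2 2.90 ± 0.41 SE, adjusted p = 4.35e-05), 2.84-fold in the hnRNPM KD (adjusted p = 0.00995) and 2.49-fold in the MagoHB KD (adjusted p = 0.0228). Between KDs, CXCL1 was 2.64-fold higher in the S100A16 KD than in the hnRNPM KD (adjusted p = 0.00602) and 3.01-fold higher than in the MagoHB KD (adjusted p = 0.0028). The CXCL1 call in the hnRNPM KD was lost without hnRNPM KD 3 (log2 1.02, adjusted p = 0.0711). That in the MagoHB KD was lost without MagoHB KD 2 (log2 0.57, adjusted p = 0.185) and without WT untreated 1 (log2 1.14, adjusted p = 0.0865), and also with no filter beyond 1 count (adjusted p = 0.0519) and in the fit to those groups alone (adjusted p = 0.0532).

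CXCL2 followed the same order. It was 1.81, 2.2 and 2.73 CPM in WT cells without H2O2, 13.8, 12.9 and 11.5 CPM in S100A16 KD cells without H2O2, 4.5, 5.18 and 6.58 CPM in the hnRNPM KD and 2.25, 5.94 and 3.73 CPM in the MagoHB KD. The S100A16 KD libraries lay above all others of these groups, and the MagoHB KD overlapped WT. CXCL2 rose 5.64-fold in the S100A16 KD (log2 2.5 ± 0.25, adjusted p = 4.08e-07), 2.41-fold in the hnRNPM KD (adjusted p = 0.00063) and 1.79-fold in the MagoHB KD (adjusted p = 0.0144). It was 2.34-fold higher in the S100A16 KD than in the hnRNPM KD (adjusted p = 0.000282) and 3.15-fold higher than in the MagoHB KD (adjusted p = 1.84e-05). The MagoHB call for CXCL2 was lost without MagoHB KD 2 (log2 0.42, adjusted p = 0.0928) and without WT untreated 1 (log2 0.70, adjusted p = 0.0706), and in the fit to those groups alone (adjusted p = 0.0838).

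CXCL3 was 0.818 to 1.01 CPM in untreated WT and 1.99 to 2.43 CPM in S100A16 KD cells without H2O2, and it rose 2.45-fold there (adjusted p = 0.00118). It was 1.76 to 2.91 CPM in the hnRNPM KD, a 2.54-fold rise (adjusted p = 0.000942), and 1.28 to 3.30 CPM in the MagoHB KD, a 2.26-fold rise (adjusted p = 0.00323). Unlike for CXCL1 and CXCL2, the test between the S100A16 and hnRNPM KDs was not passed for CXCL3 (log2 -0.05 ± 0.28, adjusted p = 0.9), and its sign turned with scaling by total counts (0.07). Without MagoHB KD 2 the CXCL3 rise in the MagoHB KD was 0.56 on the log2 scale (adjusted p = 0.0711). CXCL1, CXCL2 and CXCL3 share part of their sequence: 4.81%, 12.5% and 6.01% of the 50-base words in their exons also occur in another of the 3, so reads could be exchanged between them, depending on the counting.

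CXCL8, the remaining neutrophil chemokine, was 0.779, 0.818 and 0.592 CPM in WT cells without H2O2, while the S100A16 KD without H2O2 had 4.61, 4.97 and 4.99 CPM. In the hnRNPM KD it was 1.63, 2.59 and 8.97 CPM and in the MagoHB KD 2.04, 8.72 and 3.40 CPM. Each KD lay wholly above WT, but the spread was wide in the hnRNPM and MagoHB KDs and narrow in the S100A16 KD. CXCL8 rose 6.64-fold in the S100A16 KD (log2 2.73 ± 0.68, adjusted p = 0.00425), 6.07-fold in the hnRNPM KD (adjusted p = 0.00653) and 6.54-fold in the MagoHB KD (adjusted p = 0.00536). Without hnRNPM KD 3 its rise in the hnRNPM KD was 1.51 on the log2 scale, and without MagoHB KD 2 its rise in the MagoHB KD was 1.90, and both stayed called. No test between KDs was passed for CXCL8 with all libraries. With both libraries left out it was higher in the S100A16 KD by 1.22 against the hnRNPM KD (adjusted p = 6.72e-07) and by 0.83 against the MagoHB KD (adjusted p = 0.000192). That choice was made after seeing the high values of CXCL8 and other members in these 2 libraries.

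CCL2 moved in opposite directions between KDs. It was 14.1, 13.7 and 13.4 CPM in WT cells without H2O2, 27.0, 31.9 and 25.1 CPM in S100A16 KD cells without H2O2, 22.9, 25.0 and 29 CPM in the hnRNPM KD and 6.26, 13.3 and 7.76 CPM in the MagoHB KD. The S100A16 and hnRNPM KDs lay above WT and the MagoHB KD below it, with MagoHB KD 2 just under the lowest WT library. CCL2 rose 2.04-fold in the S100A16 KD (adjusted p = 0.000317) and 1.86-fold in the hnRNPM KD (adjusted p = 0.00108), and it fell 1.5-fold in the MagoHB KD (log2 -0.58 ± 0.20, adjusted p = 0.0241). It was 3.05-fold higher in the S100A16 KD than in the MagoHB KD (adjusted p = 5.67e-06) and 2.79-fold higher in the hnRNPM KD than in the MagoHB KD (adjusted p = 1.41e-05). The CCL2 fall in the MagoHB KD was not called with scaling by total counts (log2 -0.36, adjusted p = 0.177), with no filter beyond 1 count (adjusted p = 0.0667) or in the fit to those groups alone (adjusted p = 0.098). It was also not called without MagoHB KD 1 (-0.38, adjusted p = 0.0645), MagoHB KD 3 (-0.48, adjusted p = 0.0878) or WT untreated 1 (-0.57, adjusted p = 0.0575), and without MagoHB KD 2 it was -0.97 and called.

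IL6, the acute-phase cytokine, was 0.412, 0.636 and 0.319 CPM in WT cells without H2O2, while the S100A16 KD without H2O2 had 2.73, 3.75 and 2.94 CPM. It was 1.96, 1.77 and 5.38 CPM in the hnRNPM KD and 1.35, 7.11 and 2.07 CPM in the MagoHB KD. All KD libraries lay above WT, and the KDs overlapped each other. IL6 rose 6.86-fold in the S100A16 KD (log2 2.78 ± 0.68, adjusted p = 0.00349), 6.70-fold in the hnRNPM KD (adjusted p = 0.00427) and 7.80-fold in the MagoHB KD (adjusted p = 0.00262). Its rise was 2.03 on the log2 scale without hnRNPM KD 3 and 1.91 without MagoHB KD 2, both called. Between the S100A16 and MagoHB KDs the difference in IL6 was -0.18 (adjusted p = 0.813), and with both libraries left out it was 0.87 with the S100A16 KD higher (adjusted p = 0.000592). IL6 exons overlap AC073072.5 on the opposite strand by 428 bases, and that feature was at 0.487 CPM on average.

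IL11, a cytokine that signals through IL6ST and is known for its part in fibrosis and bone metastasis, had the largest fold difference of the 10 genes in any comparison. It was 0.504, 0.500 and 0.842 CPM in untreated WT and 18.5, 23.8 and 22.2 CPM in the hnRNPM KD. In the MagoHB KD it was 1.80, 2.11 and 1.39 CPM and in the untreated S100A16 KD 0.357, 0.675 and 0.529 CPM. The hnRNPM KD libraries lay far above every other library, the MagoHB KD lay above WT, and the S100A16 KD overlapped WT. IL11 rose 34.8-fold in the hnRNPM KD (log2 5.12 ± 0.25, adjusted p = 1.41e-12) and 2.87-fold in the MagoHB KD (log2 1.52 ± 0.28, adjusted p = 0.000142). The difference in the S100A16 KD was -0.23 ± 0.33 (adjusted p = 0.597), and its sign turned with scaling by total counts (0.01). IL11 was 12.1-fold higher in the hnRNPM KD than in the MagoHB KD (adjusted p = 2.74e-11) and 40.7-fold higher than in the S100A16 KD (adjusted p = 4.93e-13). In IL11, 1.39% of 50-base words also occur in other genes.

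LIF, a cytokine of the same receptor family, differed little between groups, and neighbouring groups did not overlap. It was 30.3, 31.1 and 32 CPM in WT cells without H2O2, 40.3, 40.0 and 40.0 CPM in S100A16 KD cells without H2O2, 25.7, 23.9 and 23.2 CPM in the hnRNPM KD and 32.5, 33.4 and 32.3 CPM in the MagoHB KD. The S100A16 KD was the highest of these groups and the hnRNPM KD the lowest. LIF rose 1.29-fold in the S100A16 KD (log2 0.36 ± 0.055, adjusted p = 8.89e-06) and fell 1.28-fold in the hnRNPM KD (log2 -0.36 ± 0.056, adjusted p = 1.35e-05). In the MagoHB KD the difference was 0.07 ± 0.055 (adjusted p = 0.315), and with scaling by total counts it was 0.28 and called (adjusted p = 0.000379). LIF was 1.65-fold higher in the S100A16 KD than in the hnRNPM KD (adjusted p = 3.09e-10), 1.23-fold higher than in the MagoHB KD (adjusted p = 0.000129), and 1.35-fold lower in the hnRNPM KD than in the MagoHB KD (adjusted p = 1.19e-06). LIF exons overlap RP1-102K2.8 on the opposite strand by 175 bases, and that feature was at 6.04 CPM on average.

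PTGS2 was the member that fell in every KD. It was 33.2, 31.5 and 30.5 CPM in WT cells without H2O2, 22.6, 21.5 and 21.2 CPM in S100A16 KD cells without H2O2, 17.7, 17 and 17.3 CPM in the hnRNPM KD and 17.5, 13.2 and 14.7 CPM in the MagoHB KD. No KD library reached the lowest WT library. PTGS2 fell 1.46-fold in the S100A16 KD (log2 -0.54 ± 0.079, adjusted p = 6.02e-06), 1.83-fold in the hnRNPM KD (adjusted p = 8.92e-09) and 2.1-fold in the MagoHB KD (adjusted p = 5.74e-10). It was 1.26-fold higher in the S100A16 KD than in the hnRNPM KD (adjusted p = 0.00176) and 1.44-fold higher than in the MagoHB KD (adjusted p = 1.24e-05). Between the hnRNPM and MagoHB KDs the difference in PTGS2 was 0.20 ± 0.082 (adjusted p = 0.0547), and without MagoHB KD 1 it was 0.32 (adjusted p = 0.00179).

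PTX3 rose with IL11 in the hnRNPM KD. It was 1.28, 1.318 and 1.91 CPM in WT cells without H2O2, 18, 21.0 and 33.4 CPM in the hnRNPM KD, 2.16, 2.85 and 2.45 CPM in the S100A16 KD without H2O2 and 0.996, 5.21 and 1.29 CPM in the MagoHB KD. The hnRNPM KD lay far above the other groups, the S100A16 KD lay just above WT, and the MagoHB KD was spread on both sides of WT. PTX3 rose 16-fold in the hnRNPM KD (log2 4.00 ± 0.50, adjusted p = 1.7e-05). In the S100A16 KD the difference was 0.73 ± 0.53 (adjusted p = 0.276), and with both libraries left out it was 0.73 and called (adjusted p = 0.000315). The fit to those groups alone also called PTX3 in the S100A16 KD (0.71, adjusted p = 0.00126). In the MagoHB KD it was 0.78 ± 0.53 (adjusted p = 0.258), and without MagoHB KD 2 it turned to -0.39 (adjusted p = 0.429). PTX3 was 9.37-fold higher in the hnRNPM KD than in the MagoHB KD (adjusted p = 6.49e-05) and 9.68-fold higher than in the S100A16 KD (adjusted p = 5.32e-05). PTX3 exons overlap VEPH1 on the opposite strand by 71 bases, and VEPH1 was at 0.951 CPM on average.

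Set against each other, the S100A16 KD had 4 members higher and 2 lower than the hnRNPM KD, where 48.8% of all genes were called, 24.6% higher and 24.2% lower. Against the MagoHB KD it had 5 higher and 1 lower, where 44.8% of genes were called (23.2% and 21.7%). The hnRNPM KD had 3 members higher (CCL2, IL11 and PTX3) and 1 lower (LIF) than the MagoHB KD, against 44.5% called (22.3% and 22.2%). These counts rested in part on the 2 libraries that stood apart. With both left out, the S100A16 KD had 7 higher and 2 lower against the hnRNPM KD (27.1% and 27% of genes), and 9 higher and 1 lower against the MagoHB KD (26.7% and 24.1%). The hnRNPM KD then had 5 higher and 1 lower against the MagoHB KD (24% and 22.8%). Scaling by total counts took the share of higher calls from 50.4% to 62.9% between the S100A16 and hnRNPM KDs, and from 50.2% to 39.1% between the hnRNPM and MagoHB KDs, with median shifts of 0.12 and -0.10.

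Without the 2 libraries, 2 members changed side between the S100A16 and MagoHB KDs. PTX3 went from -0.05 (adjusted p = 0.951) to 1.12 with the S100A16 KD higher (adjusted p = 7.06e-06), and IL6 went from -0.18 to 0.87. CXCL3 went from 0.12 (adjusted p = 0.769) to 0.73 (adjusted p = 0.00402) between the same KDs. Between the S100A16 and hnRNPM KDs, IL6 went from 0.03 (adjusted p = 0.966) to 0.75 (adjusted p = 0.00282) and CCL2 from 0.13 (adjusted p = 0.602) to 0.23 (adjusted p = 0.0149). Between the hnRNPM and MagoHB KDs, CXCL1 went from 0.19 (adjusted p = 0.725) to 0.45 (adjusted p = 0.0273) and CXCL2 from 0.43 (adjusted p = 0.163) to 0.67 (adjusted p = 0.000663).

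H2O2 raised PTGS2, CXCL2 and LIF in WT cells. These 3 of the 10 members were called higher and 0 lower, where 0.223% of all genes were called, 0.147% higher and 0.076% lower. PTGS2 went from 33.2, 31.5 and 30.5 CPM to 56.5, 51.8 and 54.2 CPM, a 1.71-fold rise (log2 0.77 ± 0.078, adjusted p = 2.95e-06). CXCL2 went from 1.81, 2.2 and 2.73 CPM to 6.43, 6.11 and 6.50 CPM, a 2.82-fold rise (log2 1.49 ± 0.26, adjusted p = 0.0152). LIF went from 30.3, 31.1 and 32 CPM to 38.7, 37.2 and 36.9 CPM, a 1.21-fold rise (log2 0.27 ± 0.055, adjusted p = 0.0338). In each of these the treated and untreated libraries did not overlap. PTGS2 stayed called without any single library of the 2 groups. CXCL2 stayed called only without WT untreated 3, with adjusted p from 0.0644 to 0.119 without WT untreated 1 or 2 or any WT H2O2 library. LIF was called in none of those fits, with adjusted p from 0.086 to 0.269 without WT untreated 1, 2 or 3 or WT H2O2 1, 2 or 3, and it also missed the threshold with no filter beyond 1 count (adjusted p = 0.209).

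Another 5 members were higher in all 3 treated than in all 3 untreated WT libraries without passing the test. IL6 went from 0.319 to 0.636 CPM up to 1.36 to 1.87 CPM (log2 1.78 ± 0.73, adjusted p = 0.688), and CXCL8 from 0.592 to 0.818 CPM up to 1.28 to 2.33 CPM (1.3 ± 0.74, adjusted p = 0.825). CXCL1 went from 1.10 to 1.64 CPM up to 2.68 to 3.09 CPM (1.00 ± 0.45, adjusted p = 0.736). CCL2 went from 13.4 to 14.1 CPM up to 19.9 to 21.8 CPM (0.62 ± 0.19, adjusted p = 0.425). CXCL3 went from 0.818 to 1.01 CPM up to 1.17 to 1.52 CPM (0.58 ± 0.32, adjusted p = 0.8). The spread of each gene was estimated over all 18 libraries, hnRNPM KD 3 and MagoHB KD 2 included. With both left out, 7 members were called higher (0.999% of genes higher and 0.933% lower): besides PTGS2, CXCL2 and LIF, these were IL6 (adjusted p = 3.31e-06), CXCL1 (6.6e-06), CXCL8 (0.000219) and CCL2 (6.58e-08). The fit to the 6 WT libraries alone also called 7 members, where 555 of all genes were called. IL11 and PTX3 overlapped between treated and untreated WT, with differences of -0.03 each (adjusted p = 0.997 and 0.998).

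In the S100A16 KD the same H2O2 treatment gave 0 called members by edgeR, where 0.0134% of genes were called, all of them lower. DESeq2 also called 0 members, and 1 member, LIF, had an unadjusted p under 0.05. PTGS2 was 22.6, 21.5 and 21.2 CPM before and 20.1, 22.1 and 21.2 CPM after H2O2 (log2 -0.04 ± 0.080). CXCL2 was 13.8, 12.9 and 11.5 CPM before and 12.9, 13.4 and 14.8 CPM after (0.11 ± 0.22), and CXCL1 was 9.96 to 11.7 CPM before and 11.6 to 13.4 CPM after (0.17 ± 0.34). These groups overlapped. CXCL8 was 4.61, 4.97 and 4.99 CPM before and higher in all treated libraries, at 5.34 to 5.80 CPM (0.20 ± 0.55, adjusted p = 0.988). LIF was 40.3, 40.0 and 40.0 CPM before and 35.8, 35.5 and 36.0 CPM after, lower in all treated libraries (-0.17 ± 0.055, adjusted p = 0.513). In the fit to the S100A16 KD libraries alone LIF was called (-0.18, adjusted p = 0.0306), where 801 of all genes were called. With hnRNPM KD 3 and MagoHB KD 2 left out, LIF was the member called (-0.17, adjusted p = 0.047). In that fit 2.36% of all genes were called higher and 0.699% lower, so the larger side of the background turned from lower to higher.

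**Figure D4:**
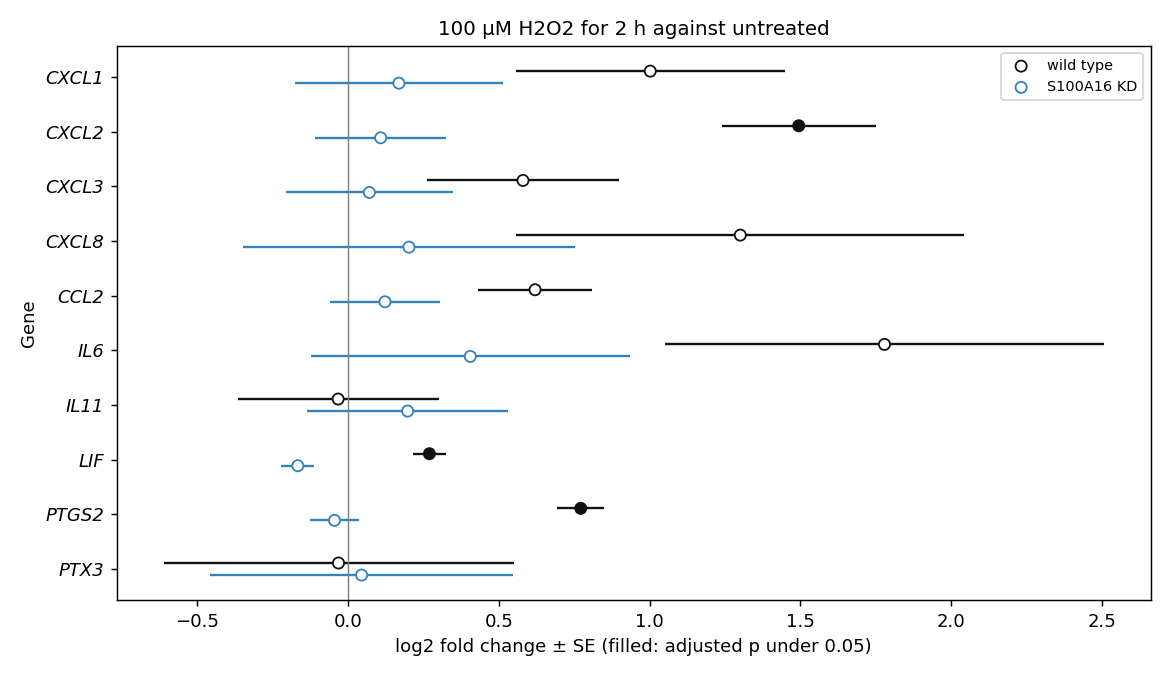
Log2 fold change of each gene after 2 h of 100 µM H2O2 in WT cells and in the S100A16 KD, with bars for the standard error and filled points for adjusted p under 0.05. PTGS2, CXCL2 and LIF are filled in WT (0.77, 1.49 and 0.27), and no point is filled in the KD, where LIF lies at -0.17.

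The difference between the 2 responses was tested directly, as the log2 change in the S100A16 KD minus that in WT. It passed for 2 members, both lower, where 0.0938% of genes were called, 0.0179% higher and 0.076% lower: PTGS2 (-0.82 ± 0.11, adjusted p = 0.000892) and LIF (-0.44 ± 0.078, adjusted p = 0.0194). For CXCL2 it was -1.39 ± 0.34 (adjusted p = 0.374), and DESeq2 called CXCL2 too (adjusted p = 0.0189). edgeR also called CXCL2 when no filter beyond 1 count was applied (-1.37, adjusted p = 0.0231). The edgeR fit to the compared groups alone called 7 members, where 256 of all genes were called. CXCL2 was among these 7 (-1.405, adjusted p = 2.49e-09). PTGS2 stayed called without any single library, whereas LIF stayed called without WT H2O2 3 and was lost without any other single library of the 4 groups (adjusted p from 0.0506 to 0.129). With no filter beyond 1 count LIF also missed the threshold (-0.42, adjusted p = 0.147). With hnRNPM KD 3 and MagoHB KD 2 left out, 7 members were called lower (0.475% of genes higher and 0.466% lower), with CXCL2 at -1.38 (adjusted p = 7.78e-07), IL6 at -1.37 (0.015), CXCL8 at -1.10 (0.0361), CXCL1 at -0.83 (0.00862) and CCL2 at -0.50 (0.00514) besides PTGS2 and LIF.

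Under H2O2, the S100A16 KD had 5 members higher and 1 lower than WT, where 52.5% of genes were called, 27.9% higher and 24.7% lower. Scaling by total counts shifted the median of all genes by 0.18 and took the share of higher calls from 53.1% to 70%. CXCL1 was 4.20-fold higher (11.6 to 13.4 against 2.68 to 3.09 CPM, adjusted p = 0.000441) and CXCL2 2.16-fold higher (12.9 to 14.8 against 6.11 to 6.50 CPM, adjusted p = 0.000626). CXCL8 was 3.10-fold (adjusted p = 0.0383), CXCL3 1.72-fold (adjusted p = 0.0296) and CCL2 1.44-fold higher (adjusted p = 0.0265). PTGS2 was 2.56-fold lower (20.1 to 22.1 against 51.8 to 56.5 CPM, adjusted p = 7.94e-12). IL6 was 3.42 to 5.30 against 1.36 to 1.87 CPM (log2 1.41 ± 0.57, adjusted p = 0.0544). For all of these the groups did not overlap. With the 2 libraries left out, 7 members were higher and 1 lower (31% and 27.4% of all genes), IL6 (adjusted p = 9.83e-09) and PTX3 (log2 0.80, adjusted p = 0.000121) being added. With all libraries kept, IL6 was called with scaling by total counts (adjusted p = 0.0366) and by DESeq2 (adjusted p = 0.0356). The edgeR fit to the compared groups alone called IL6 (adjusted p = 4.19e-09) and PTX3 (log2 0.78, adjusted p = 0.000572). LIF was 35.5 to 36.0 against 36.9 to 38.7 CPM (-0.07 ± 0.055, adjusted p = 0.283), and its sign turned with scaling by total counts (0.11).

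The smaller calls under H2O2 were lost in several fits without 1 library, while the differences kept their direction. In these fits the log2 difference ran from 1.42 to 1.83 for CXCL8, from 0.69 to 0.89 for CXCL3 and from 0.47 to 0.57 for CCL2. With all libraries it was 1.63, 0.78 and 0.53. The CXCL8 call was lost without any 1 of the 3 WT H2O2 or the 3 S100A16 KD H2O2 libraries (adjusted p from 0.0586 to 0.123). The CXCL3 call was lost without WT H2O2 2 or 3 or S100A16 KD H2O2 1 or 2 (adjusted p from 0.076 to 0.0999). The CCL2 call was lost without WT H2O2 1, 2 or 3 or S100A16 KD H2O2 2 or 3 (adjusted p from 0.0587 to 0.0922). With no filter beyond 1 count, CXCL8 (adjusted p = 0.0792) and CCL2 (adjusted p = 0.0767) were not called either.

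Other genes of these pathways were counted from lists, which were also chosen with earlier results of these data known. The list counts are therefore a description too. Each count is read against the shares of all genes called higher and lower, which were 27.6% and 24.8% in the untreated S100A16 KD, 25.4% and 23.8% in the hnRNPM KD, and 23.3% and 22.3% in the MagoHB KD. Of 20 tested cytokine and chemokine ligands that were not members, 15 were higher and 1 lower in the untreated S100A16 KD, with IL18 at 76.7 against 46.2 CPM (log2 0.73, adjusted p = 1.2e-05) and the acute-phase gene SAA2 at 1.67 against 0.106 CPM (3.94, adjusted p = 1.52e-05). In the hnRNPM KD 7 were higher and 2 lower, and in the MagoHB KD 11 and 0. IL32, a proinflammatory cytokine, rose in both, from 4.44 CPM in WT to 41.3 CPM in the hnRNPM KD (3.22, adjusted p = 6.3e-06) and 22.9 CPM in the MagoHB KD (2.38, adjusted p = 0.000114). The list medians were 1.39, 0.65 and 0.92 in these KDs, beside 0.06, 0.02 and 0.04 over all genes. With the 2 libraries left out, the counts were 17 and 1, 7 and 4, and 11 and 0.

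Of 20 tested receptor and STAT pathway genes, 13 were higher and 1 lower in the S100A16 KD, 9 and 6 in the hnRNPM KD and 6 and 5 in the MagoHB KD, the last near the 23.3% and 22.3% of all genes. The interleukin-1 receptor gene IL1R1 went from 51 to 132 CPM in the S100A16 KD (1.37, adjusted p = 2.77e-14) and fell to 26.6 CPM in the MagoHB KD (-0.94, adjusted p = 2.22e-11). IL6ST, the shared subunit for IL6, IL11 and LIF, fell from 98.6 to 46.4 CPM in the hnRNPM KD (-1.09, adjusted p = 6.36e-09), where STAT3 rose from 61.1 to 115 CPM (0.91, adjusted p = 0.000299) and SOCS3, a feedback inhibitor of that pathway, rose from 22.8 to 47.4 CPM (1.06, adjusted p = 1.93e-10). The list medians were 0.86, 0.25 and 0.05. Without the 2 libraries the counts were 13 and 2, 9 and 6, and 4 and 6.

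Of 24 NF-kB signalling and feedback genes, 12 were higher and 3 lower in the S100A16 KD, 9 and 7 in the hnRNPM KD and 11 and 5 in the MagoHB KD, with list medians of 0.25, 0.25 and 0.13, beside 0.06, 0.02 and 0.04 over all genes. NFKBIZ, a nuclear coactivator of NF-kB, rose from 13.2 to 45.3 CPM in the S100A16 KD (1.77, adjusted p = 2.89e-06). TRAF1, an NF-kB target, rose from 3.99 to 33.7 CPM in the hnRNPM KD (3.08, adjusted p = 0.000145) and to 32.7 CPM in the MagoHB KD (3.04, adjusted p = 0.000196). Of 16 AP-1, CEBP and ATF factors, 6 were higher and 2 lower, 7 and 5, and 7 and 4, with list medians of 0.11, 0.31 and 0.32. FOSL1, an AP-1 subunit, rose from 23.2 to 108 CPM in the hnRNPM KD (2.22, adjusted p = 8.59e-06), and JUN rose from 27.6 to 89.2 CPM there (1.69, adjusted p = 0.000192) and to 89.6 CPM in the MagoHB KD (1.70, adjusted p = 0.000226). Without the 2 libraries the NF-kB counts were 13 and 4, 11 and 7, and 10 and 6, and the AP-1, CEBP and ATF counts 7 and 3, 8 and 5, and 5 and 3.

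Beside PTGS2, most called genes of prostaglandin synthesis and response were lower: 1 higher and 6 lower of 12 in the S100A16 KD, 3 and 7 in the hnRNPM KD and 1 and 8 in the MagoHB KD, with list medians of -0.29, -0.55 and -0.37. HPGD, which breaks prostaglandins down, fell from 197.8 to 88.4 CPM in the hnRNPM KD (-1.16, adjusted p = 5.63e-12) and to 66.9 CPM in the MagoHB KD (-1.57, adjusted p = 7.67e-14). PTGES, an inducible prostaglandin E synthase, rose from 2.74 to 5.93 CPM in the hnRNPM KD (1.12, adjusted p = 0.000276). Of 21 genes for mRNA decay and stability through AU-rich stretches, 3 were higher and 9 lower, 4 and 8, and 3 and 6, with list medians of -0.13, -0.12 and -0.12. PARN, a deadenylase, fell in all 3 KDs, by 0.97, 0.93 and 0.57 on the log2 scale. Without the 2 libraries the prostaglandin counts were 1 and 6, 3 and 7, and 1 and 7, and the decay counts 4 and 10, 5 and 9, and 2 and 9.

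Under H2O2 in WT, the AP-1, CEBP and ATF list had 4 of 16 genes higher, and 9 with the 2 libraries left out, beside 0.147% and 0.999% of all genes. FOS went from 7.19 to 75.8 CPM (3.40, adjusted p = 2.09e-08), EGR1 from 1.64 to 48.0 CPM (4.87, adjusted p = 3.49e-07) and FOSB from 0.928 to 7.90 CPM (3.09, adjusted p = 8.58e-08), all immediate early genes. Among the decay genes, ZFP36 rose from 12.0 to 31.4 CPM (1.39, adjusted p = 3.49e-07) and ZC3H12A, a nuclease that degrades IL6 mRNA, from 8.12 to 14.4 CPM (0.82, adjusted p = 0.0044), and of the receptor and STAT genes SOCS3 rose from 22.8 to 35.0 CPM (0.62, adjusted p = 6.99e-05). The difference between the KD and WT responses was called for FOS (-2.81, adjusted p = 2.74e-05), FOSB (-2.99, adjusted p = 0.00015), EGR1 (-3.81, adjusted p = 0.00137), ZFP36 (-1.19, adjusted p = 0.0023) and SOCS3 (-0.54, adjusted p = 0.0484). In WT, edgeR called 0 of the 20 other ligands, 0 of the 24 NF-kB genes and 0 of the 12 prostaglandin genes, with 2, 2 and 0 at an unadjusted p under 0.05 and 1, 1 and 0 called by DESeq2.

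Across all 6 groups, CXCL1, CXCL2, CXCL3, CXCL8, IL6 and CCL2 had their highest mean in the S100A16 KD under H2O2 (12.2 ± 0.97, 13.7 ± 0.99, 2.27 ± 0.34, 5.6 ± 0.23, 4.18 ± 0.99 and 30.5 ± 1.4 CPM) and, except CCL2, their lowest in untreated WT (SD, n = 3). For CXCL1 the order from the top was both S100A16 KD groups, then the hnRNPM KD, the MagoHB KD, WT under H2O2 and untreated WT. The S100A16 KD libraries did not overlap the hnRNPM KD, and treated WT did not overlap untreated WT, while the other neighbours in that order overlapped. For CXCL2, treated WT stood next below the S100A16 KD groups (6.35 ± 0.21 CPM) and overlapped the hnRNPM KD (5.42 ± 1.1 CPM) below it. For CXCL3, the 4 highest groups overlapped as neighbours (1.97 to 2.27 CPM on average), and untreated WT was lowest with no overlap with treated WT. For CXCL8 and IL6, every group between untreated WT and the top overlapped its lower neighbour except the S100A16 KD pair for CXCL8, while untreated WT lay apart below treated WT.

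CCL2 ran from the S100A16 KD groups through the hnRNPM KD, treated WT (21.2 ± 1.1 CPM) and untreated WT (13.8 ± 0.34 CPM) to the MagoHB KD (9.10 ± 3.7 CPM), with overlap only among its top 3 groups. LIF ran from the untreated S100A16 KD through treated WT, the treated S100A16 KD, the MagoHB KD and untreated WT to the hnRNPM KD, and no neighbours overlapped, although the MagoHB KD (lowest 32.3 CPM) and untreated WT (highest 32 CPM) nearly met. PTGS2 ran from treated WT (54.1 ± 2.3 CPM) and untreated WT (31.7 ± 1.4 CPM) through the S100A16 KD groups and the hnRNPM KD (17.3 ± 0.34 CPM) to the MagoHB KD (15.2 ± 2.2 CPM). Its overlaps were between the S100A16 KD groups and between the last 2 groups. For IL11, the hnRNPM KD and then the MagoHB KD stood apart, and the WT and S100A16 KD groups overlapped at 0.520 to 0.615 CPM. For PTX3, the hnRNPM KD stood apart, the S100A16 KD groups and the MagoHB KD overlapped at 2.49 to 2.57 CPM, and the untreated S100A16 KD did not overlap untreated WT.

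Within the set, CXCL8 and IL6 had the most similar profiles over the 18 libraries (Pearson r = 0.962, Spearman rho = 0.957 of log2 CPM), followed by CXCL1 and CXCL2 (0.938 and 0.922). IL11 and PTX3 had r = 0.886 but rho = 0.540, with the hnRNPM KD libraries far from the others, and IL11 and LIF had r = -0.871 but rho = -0.564. With PTGS2, r ran from -0.570 (CXCL8) to 0.385 (LIF) and rho from -0.732 (IL11) to 0.416 (LIF). These values describe libraries that share groups, and are not independent points. Among 10034 other genes with a symbol and a mean of at least 5 CPM, ATF3, a stress-induced transcription factor, was closest to both CXCL8 (r = 0.960, rho = 0.969) and IL6 (r = 0.945, rho = 0.942). Closest to CXCL1 were ZC3HAV1, OTUD5 and B2M (r = 0.957 to 0.959), and closest to CXCL2 were PNRC1, B2M and NFKBIZ (0.915 to 0.920). Closest to CXCL3 were ABALON, NKIRAS2 and BCL2L1 (0.918 to 0.924), to CCL2 IGFBP7-AS1, IGFBP7 and PRNP (0.946 to 0.952), and to PTX3 OXTR, ETS1 and SLC25A37 (0.962 to 0.966). Closest to IL11 were AHI1, NBPF14 and FAM171A1 (r = 0.962 to 0.969, rho = 0.622 to 0.728), to LIF TMEM123, SAP30L and HSPA13 (0.917 to 0.924), and to PTGS2 TMEM14B, LSM4 and OSGIN2 (0.930 to 0.942).

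ATF3 also varied within groups. It was 12.6, 12.8 and 12.5 CPM in WT cells without H2O2, while the S100A16 KD without H2O2 had 37.5, 40.3 and 43.0 CPM. In the hnRNPM KD it was 23.4, 26.5 and 62.3 CPM and in the MagoHB KD 27.6, 105 and 36.3 CPM. Its highest libraries in the last 2 groups were hnRNPM KD 3 and MagoHB KD 2, the libraries in which CXCL8 and IL6 were highest.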

How the data were processed

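The deposited tables hold read counts (whole numbers) for each gene in 18 libraries, and RPKM values of the same genes. The submitters' processing notes list HISAT2 2.2.1 with build GRCh38 (hg38), StringTie 2.1.4, SAMtools 1.15.1, FastQC 0.11.9 and DESeq2 1.32.0. No source used here names the counter, its annotation or its use of strand. Of counts from 1 to 19, only 18.6% to 22% were odd, so both mates of a pair were probably counted, and halved counts were an alternative.

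Groups came from the labels. The test was edgeR 4.0.16 in R 4.3.3, with its robust quasi-likelihood F statistic, TMM factors, the filterByExpr filter and 1 fit to all 18 libraries. Benjamini-Hochberg adjustment ran over 22382 genes in each of 10 comparisons. Standard errors are the log2 fold change divided by the root of F, and levels are TMM-scaled CPM. It was first tried on simulated data.

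Alternatives were DESeq2 1.42.0, total-count scaling, no filter beyond 1 count, compared groups alone, halved counts, a replicate block and each library left out. Leaving out hnRNPM KD 3 and MagoHB KD 2 together was added after seeing the data. The 10 members and all lists were chosen with earlier results of these data known. All members were described, from each list up to 3 genes per direction with the smallest adjusted p could be named, and likeness took the 3 highest Pearson r. Per-sample columns not used numbered 0.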

Additional observations from a re-analysis of the deposited data

Results flagged for a closer look

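For PTGS2 the response to H2O2 differed between the S100A16 KD and WT, with a log2 difference of -0.82 (edgeR, adjusted p = 0.000892). PTGS2 rose in WT and stood at 21.8 ± 0.77 CPM before and 21.1 ± 0.97 CPM after H2O2 in the KD (SD, n = 3).

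For LIF the difference was -0.44 (edgeR, adjusted p = 0.0194), and it missed the threshold with no filter beyond 1 count (-0.42, adjusted p = 0.147). LIF went from 31.2 ± 0.86 to 37.6 ± 0.98 CPM in WT and from 40.1 ± 0.15 to 35.8 ± 0.24 CPM in the KD, and all 3 treated libraries lay above the untreated ones in WT and below them in the KD.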

How the results depend on the processing

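Of 100 member results (10 genes in 10 comparisons), 50 kept their direction and their side of the threshold in every alternative. Counts of called genes for H2O2 (WT, then S100A16 KD) and the interaction were 50, 3 and 21. They became 85, 28 and 45 with no filter, 104, 75 and 37 with DESeq2, 555, 801 and 256 in fits to the compared groups alone, and 439, 696 and 214 with hnRNPM KD 3 and MagoHB KD 2 left out. Members called went from 3, 0 and 2 to 7, 1 and 7 both in fits to the compared groups alone and with these 2 libraries left out. For the MagoHB KD against WT, the fit to those groups alone lost the calls of CXCL1, CXCL2 and CCL2 (adjusted p = 0.0532, 0.0838 and 0.098). For the S100A16 against the MagoHB KD, members called went from 6 to 10 with both libraries left out. In the fit without both libraries 26.7% of all genes were called higher and 24.1% lower.

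Leaving out each library in turn gave 1 to 2 called members for H2O2 in WT, 1 to 2 for the interaction, 3 to 4 for the S100A16 KD against WT under H2O2, 5 to 8 for the MagoHB KD against WT and 4 to 7 for the hnRNPM against the MagoHB KD. Over all genes tested, 40 to 44, 13 to 17, 10524 to 10684, 8912 to 10387 and 8793 to 10318 were called in these comparisons, in the same order. For H2O2 in the S100A16 KD, 3 to 7 genes were called. Each such fit keeps 2 libraries in a group and fewer residual degrees of freedom.

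Signs turned for differences that were not called in the fit over all libraries. Leaving out each library in turn, IL11 ran from -0.36 to 0.26 and PTX3 from -0.21 to 0.18 for H2O2 in WT. For H2O2 in the S100A16 KD, CXCL3 ran from -0.0079 to 0.19, IL11 from -0.083 to 0.43 and PTX3 from -0.047 to 0.16. For the interaction, IL11 ran from -0.059 to 0.57 and PTX3 from -0.13 to 0.26. IL11 ran from -0.46 to 0.051 in the untreated S100A16 KD and from -0.29 to 0.32 under H2O2 against WT, and PTX3 from -0.39 to 1.13 in the MagoHB KD. Between the S100A16 and hnRNPM KDs, CXCL3 ran from -0.21 to 0.19, CXCL8 from -0.28 to 1.22 and IL6 from -0.22 to 0.75. Between the S100A16 and MagoHB KDs, CXCL3 ran from -0.11 to 0.73, CXCL8 from -0.32 to 0.83, IL6 from -0.55 to 0.87 and PTX3 from -0.40 to 1.12. Between the hnRNPM and MagoHB KDs, CXCL1 ran from -0.30 to 0.94, CXCL3 from -0.077 to 0.78, CXCL8 from -1.20 to 0.70 and IL6 from -0.93 to 0.84.

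With scaling by total counts, IL11 was 0.011 in the untreated S100A16 KD against WT, LIF 0.11 under H2O2, and CXCL3 0.068 between the S100A16 and hnRNPM KDs. With halved counts, IL11 was 0.0023 for H2O2 in WT, and CXCL8 was -0.0074 between the S100A16 and MagoHB KDs, where it was -0.0064 with no filter. IL11 in the S100A16 KD against WT under H2O2 was -0.0051 with no filter, -0.043 with halved counts, -0.0051 in the fit to those groups alone, -0.0047 with DESeq2 and -0.0013 with both libraries left out. With both left out, PTX3 was -0.39 in the MagoHB KD against WT, CXCL3 0.19 between the S100A16 and hnRNPM KDs, IL6 0.87 and PTX3 1.12 between the S100A16 and MagoHB KDs, and IL6 0.12 between the hnRNPM and MagoHB KDs. The cause was not tested.

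No pairing of groups by replicate number was seen: same-numbered libraries had correlated deviations over 0.1 in all 3 replicates in 0 of 15 pairs of groups (r from -0.175 to 0.24). The deviations were taken from means of 3 libraries, so this rule cannot show that pairing was absent. With the replicate block, LIF missed the threshold for H2O2 in WT (0.27, adjusted p = 0.0622). Between the hnRNPM and MagoHB KDs PTGS2 passed it (0.20, adjusted p = 0.0457), and PTX3 between the S100A16 and MagoHB KDs was 0.016. The other calls of members were unchanged under the block. CXCL3, CXCL8, IL6 and IL11 were under 1.1 CPM in untreated WT, and whether depth limited their tests was not tested.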
